A study of Arabidopsis thaliana with 12 samples.

Results

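WRKY6 (AT1G62300), WRKY53 (AT4G23810), STZ (AT1G27730, also called ZAT10) and SAG101 (AT5G14930) are regulators of leaf ageing, defence and stress in Arabidopsis thaliana. They were taken by locus, as the 4 genes with these names among the 13356 genes whose probe set stands for 1 gene, and each is measured by 1 probe set. All 4 rose strongly in leaves after 48 h under water, in the autophagy mutant atg5 and in the wild type col. No difference between the genotypes passed the test for any of them. WRKY53 alone of the 4 had every submerged atg5 array above every submerged col array, as 8.64% of all genes did.

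WRKY proteins are plant transcription factors that bind short promoter elements called W boxes. WRKY6 belongs to the group IIb WRKY factors and is active in senescing leaves and in pathogen responses, and WRKY53 is a group III factor that acts early in leaf senescence. STZ is a C2H2 zinc finger protein of the C1-2i subclass that acts mainly as a repressor and is induced by salt, drought, strong light and reactive oxygen. SAG101 is a lipase-like protein that partners EDS1 in plant immunity and was first found as a gene switched on in ageing leaves. Autophagy mutants are known for early leaf senescence and for raised salicylic acid signalling.

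RNA from leaves was hybridised to 12 one-colour Affymetrix arrays, 1 per sample, in 4 groups of 3 biological replicates. These are atg5 submerged for 48 h, col submerged for 48 h, atg5 control and col control. Whole plants, 28 days old and raised in days of 12 h light and 12 h dark, were placed 10 cm under the surface and kept in their usual light cycle, and controls were taken at 0 h. The atg5 line lacks a protein needed to build autophagosomes, its allele is not named in the sources used here, and ATG5 itself was not analysed here. Controls were sampled at the start, so submergence and the 48 h that passed cannot be told apart.

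Values are the deposited log2 signals, and a difference of 1 is a 2-fold change. The lowest value on all arrays is 2.20, and a signal close to it only bounds the level from above. Array medians lay between 4.17 and 4.55. Pearson's r was 0.985 to 0.996 between arrays of a group and 0.784 to 0.865 between a submerged and a control array. The spiked poly-A controls had a mean log2 signal of 6.14 under submergence and 5.57 in control, 6 arrays each (exact permutation test, two-sided p = 0.00216, adjusted p = 0.00433 over 4 measures). The 3′ minus 5′ signal of actin was 4.60 on submerged and 4.92 on control arrays (exact permutation p = 0.00216, adjusted p = 0.00433), and that of GAPDH was 1.58 on submerged and 1.44 on control arrays (exact permutation p = 0.0736, adjusted p = 0.0736). Hybridization controls had 9.08 on submerged and 9.23 on control arrays (exact permutation p = 0.0281, adjusted p = 0.0375). The part of these shifts in the results below was not tested.

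Submergence was the comparison in which the 4 genes moved, and all 4 rose in both genotypes. Over all 13356 genes, 19.1% rose and 21.2% fell in atg5, 40.3% in all (limma, Benjamini-Hochberg adjusted p below 0.05). In col 20.4% rose and 22.1% fell, 42.5% in all. On all 4 probe sets the 6 submerged arrays lay above the 6 control arrays, a pattern shown by 17.8% of all genes. Every share over all genes includes 2666 genes that lay within 0.05 of the lowest value on all 12 arrays. Within a genotype, 23% of all genes in atg5 and 22% in col had all 3 submerged arrays above all 3 control arrays. The smallest gap between the lowest submerged and the highest control array was 2.18 for SAG101, and the gap was 2.64 for WRKY53, 4.89 for WRKY6 and 5.85 for STZ. In RNA of bulk leaves, a change in the number of cells of a type and a change in RNA per cell cannot be told apart. The members were chosen with these rises already known, so the counts describe them and do not test them as a set.

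**Figure D1:**
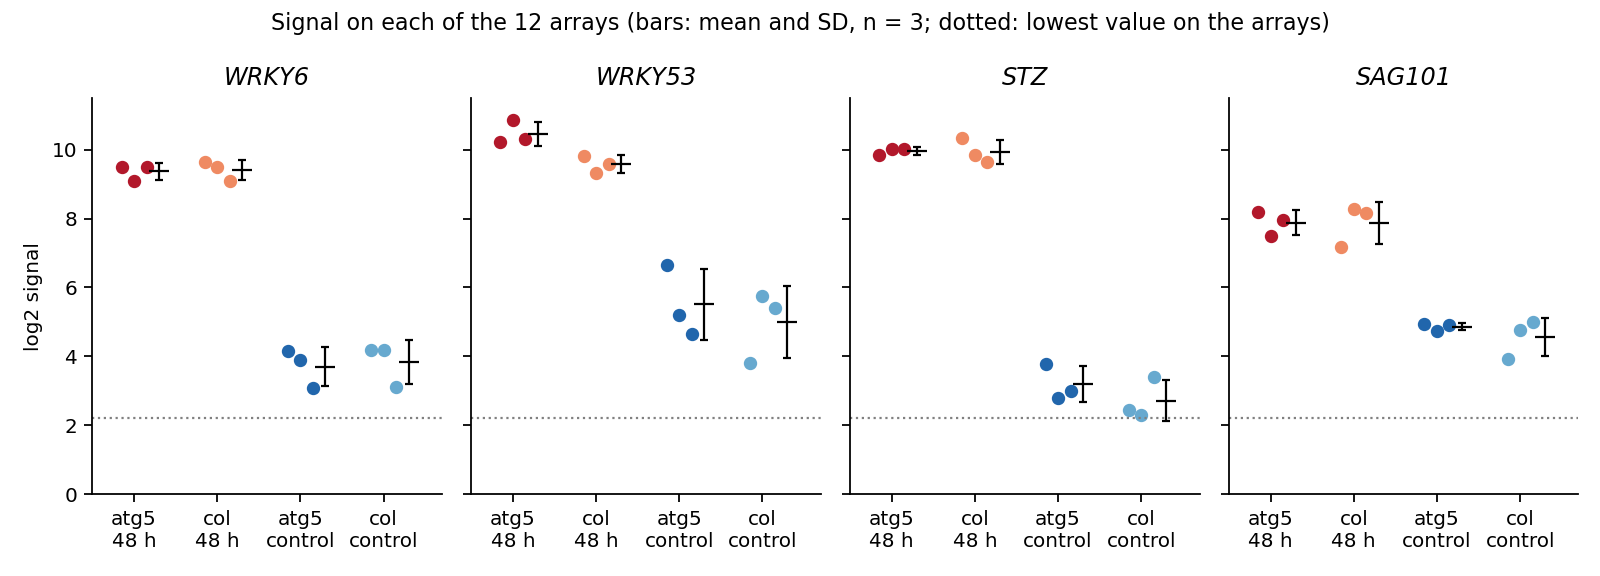
Log2 signal of the 4 genes on each of the 12 arrays, by group (points, arrays; black bars, mean and SD, n = 3; dotted line, lowest value on the arrays at 2.20). Every submerged array lies above every control array for each gene, and the STZ controls come closest to the dotted line.

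WRKY6 went up by more than 5 log2 units in both genotypes. In atg5 leaves its log2 signals were 9.51, 9.10 and 9.5 after 48 h, against 4.15, 3.89 and 3.07 in control. In col leaves they were 9.66, 9.49 and 9.09 after 48 h, against 4.2, 4.2 and 3.11 in control. The submerged arrays lie close together, whereas replicate 3 is the low control array in each genotype. WRKY6 rose by 5.67 ± 0.37 in atg5 (SE of the limma model, adjusted p = 2.86e-06), a 50.8-fold difference, and by 5.58 ± 0.37 in col (adjusted p = 2.87e-06), a 47.7-fold difference. These rises ranked 103 from the top in atg5 and 117 in col, of 13356 genes. The col control signals of replicates 1 and 2 are equal to all digits, as they are for 272 of the 8343 genes above the lowest value on both arrays.

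WRKY53 rose in both genotypes and had the most variable control arrays of the 4 genes. Its log2 signals in atg5 were 10.22, 10.86 and 10.32 after 48 h, against 6.67, 5.20 and 4.65 in control. In col they were 9.83, 9.31 and 9.59 after 48 h, against 3.82, 5.76 and 5.41 in control. The control arrays of each genotype thus spread more widely than its submerged arrays. The SD was 0.34 in atg5 at 48 h and 1.04 in atg5 control, and 0.26 in col at 48 h and 1.04 in col control. Genes with a mean within 1 log2 unit had smaller median SDs, of 0.13 for submerged atg5, 0.20 for atg5 control, 0.23 for submerged col and 0.27 for col control. The rise was 4.96 ± 0.61 in atg5 (adjusted p = 0.00015) and 4.58 ± 0.61 in col (adjusted p = 0.000226), or 31.1-fold in atg5 (95% interval 11.9 to 81.3) and 23.9-fold in col (9.16 to 62.5). WRKY53 ranked 156 from the top in atg5 and 227 in col.

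STZ showed the largest rise of the 4. In atg5 its log2 signals were 9.84, 10.03 and 10.04 after 48 h, against 3.79, 2.80 and 3.0 in control. The col arrays had 10.33, 9.86 and 9.64 after 48 h, against 2.44, 2.30 and 3.40 in control. The control signals lay only 0.09 to 1.58 above the lowest value on the arrays, so the transcript was near the lower limit of the measurement without submergence. STZ rose by 6.78 ± 0.35 in atg5 (adjusted p = 8.79e-07) and by 7.23 ± 0.35 in col (adjusted p = 5.52e-07). With controls so near the lowest value, these differences bound the rise from below and no fold is given. It ranked 57 from the top in atg5 and 44 in col.

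SAG101 rose least of the 4, by about 3 log2 units. Its log2 signals in atg5 were 8.19, 7.49 and 7.97 after 48 h, against 4.94, 4.75 and 4.91 in control. In col they were 7.17, 8.27 and 8.17 after 48 h, against 3.93, 4.76 and 4.99 in control. One col array was low in each of its groups, 7.17 at 48 h and 3.93 in control, and the atg5 controls were the tightest of the 4 groups with an SD of 0.10. SAG101 rose by 3.02 ± 0.36 in atg5 (adjusted p = 0.000123), an 8.09-fold difference with a 95% interval of 4.59 to 14.3. In col it rose by 3.31 ± 0.36 (adjusted p = 6.19e-05), a 9.90-fold difference with an interval of 5.62 to 17.4. It ranked 450 from the top in atg5 and 424 in col.

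**Figure D2:**
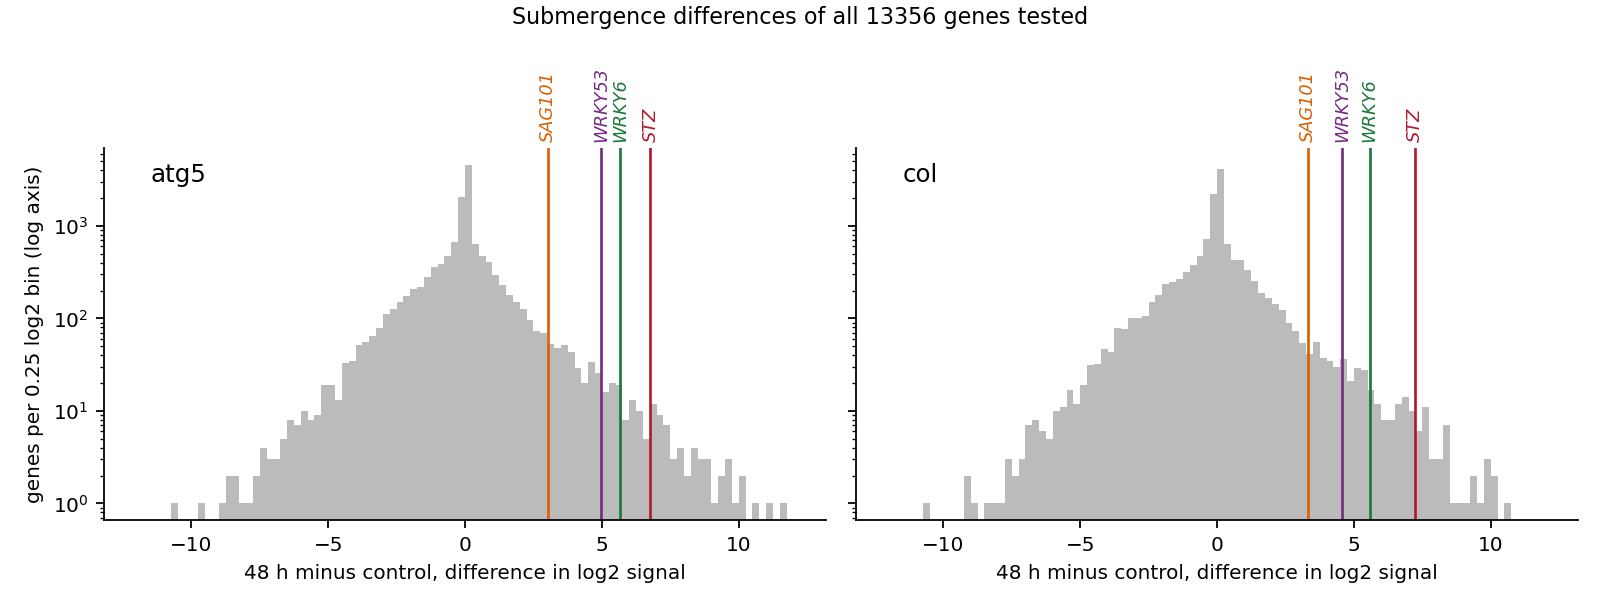
Distribution of the difference in log2 signal, 48 h minus control, over all 13356 genes (grey bars, genes per bin of 0.25 on a log axis), in atg5 on the left and col on the right. Vertical lines mark the 4 genes, which lie in the upper tail, SAG101 at 3.02 and 3.31 and STZ at 6.78 and 7.23.

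Subtracting each array's median shifts the difference of a typical gene by 0.26 in atg5 and 0.19 in col. All 4 rises passed under this scaling too, and STZ then rose by 7.03 in atg5 and 7.42 in col, WRKY6 by 5.93 in atg5 and 5.77 in col, WRKY53 by 5.22 in atg5 and 4.77 in col, and SAG101 by 3.28 in atg5 and 3.50 in col. Relative to the shifted median of all genes these rises are the same as before. The centring also changes the balance of calls over all genes, to 7809 higher and 2509 lower in atg5, against 2554 and 2829 as deposited. In col it gives 6519 higher and 2676 lower, against 2728 and 2950 as deposited.

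The second question was whether the genotypes differ, and for WRKY6, STZ and SAG101 no difference passed the test at either time. Over all genes, 3.42% differed between atg5 and col at 48 h and 2.34% in control, with 1.84% higher in atg5 at 48 h and 1.37% in control, and 0 of the 4 passed in either. WRKY53 came closest to a separation. At 48 h its mean was 10.47 ± 0.34 in atg5 and 9.58 ± 0.26 in col (SD, n = 3 each), and the lowest atg5 array, 10.22, lay above the highest col array, 9.83. Such a separation upward was seen for 8.64% of all genes. The difference was 0.89 ± 0.61 (SE, adjusted p = 0.604), or 1.86-fold with a 95% interval of 0.711 to 4.85. With only the 6 submerged arrays in the model the SE was 0.24 and the adjusted p 0.266, so the separation at 48 h did not pass with either estimate of the spread.

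In control leaves, WRKY53 averaged 5.51 ± 1.04 in atg5 and 5.0 ± 1.04 in col (SD, n = 3 each), with overlapping arrays, where 10.1% of all genes had every atg5 control array above every col control array. The difference of 0.51 ± 0.61 (adjusted p = 0.891) changed to -0.077 without col control replicate 1 and to -0.068 without atg5 control replicate 1. STZ averaged 3.20 ± 0.52 in atg5 control and 2.71 ± 0.60 in col control, a difference of 0.48 ± 0.35 (adjusted p = 0.65). Its arrays overlapped, although the atg5 replicate 1 signal of 3.79 was above all 3 col controls. SAG101 averaged 4.87 ± 0.10 in atg5 control and 4.56 ± 0.56 in col control, a difference of 0.30 ± 0.36 (adjusted p = 0.888) that became -0.011 without col control replicate 1. WRKY6 averaged 3.7 ± 0.56 in atg5 control and 3.83 ± 0.63 in col control, a difference of -0.13 ± 0.37 (adjusted p = 1), again with overlapping arrays. It became 0.051 without col control replicate 1 or 2 and 0.18 without atg5 control replicate 3.

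After submergence the other 3 genes sat at nearly equal levels in both genotypes. STZ averaged 9.97 ± 0.11 in atg5 and 9.94 ± 0.35 in col, a difference of 0.03 with a 95% interval of -0.77 to 0.82 (adjusted p = 1). SAG101 averaged 7.88 ± 0.36 in atg5 and 7.87 ± 0.60 in col, a difference of 0.01 with an interval of -0.80 to 0.83 (adjusted p = 1). WRKY6 averaged 9.37 ± 0.24 in atg5 and 9.41 ± 0.29 in col, a difference of -0.04 with an interval of -0.87 to 0.79 (adjusted p = 1). The intervals are wide, and the data do not show that the levels are alike.

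Ordered by group mean, WRKY53 and STZ ran from atg5 at 48 h through col at 48 h and atg5 control to col control, and so did SAG101. For WRKY6 col was above atg5 at both times. Of 19 alternatives, the order of the genotypes at 48 h turned in 4 for STZ, 4 for SAG101 and 2 for WRKY6, and in 0 for WRKY53. In control it turned in 3 for WRKY6, 2 for WRKY53, 1 for SAG101 and 0 for STZ. The step between submerged and control groups passed the test for all 4 genes, and the steps between the genotypes at one time did not.

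**Figure D3:**
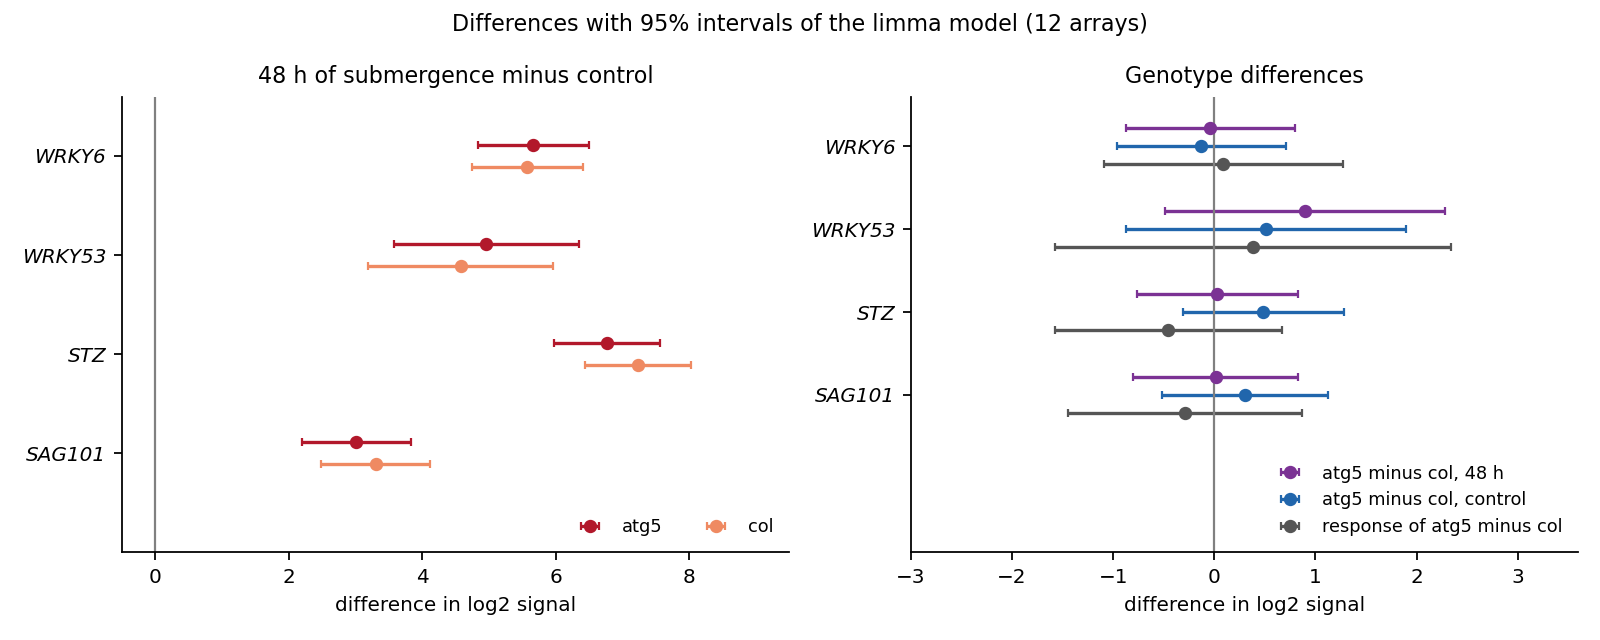
Differences in log2 signal with 95% intervals from the limma model on 12 arrays, with submergence minus control on the left and the genotype differences on the right. All 8 submergence intervals lie above 0, the lowest bound being 2.20 for SAG101 in atg5, and all 12 genotype and interaction intervals include 0.

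The interaction (the atg5 response less the col response) asks whether autophagy deficiency changed the size of the rise. It passed for 0.599% of all genes and for 0 of the 4. The estimate for STZ was -0.45 ± 0.49 (adjusted p = 0.767), and it rests on control signals near the lowest value, since the 48 h means are 9.97 in atg5 and 9.94 in col. For SAG101 it was -0.29 ± 0.51 (adjusted p = 0.885), for WRKY53 0.38 ± 0.86 (adjusted p = 0.941) and for WRKY6 0.09 ± 0.52 (adjusted p = 1). The 95% intervals ran from -1.58 to 0.67 for STZ, -1.45 to 0.86 for SAG101, -1.58 to 2.34 for WRKY53 and -1.09 to 1.27 for WRKY6. The response of WRKY53 is therefore the least well fixed of the 4.

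Relatives of the 4 genes were taken from lists of their families and pathways. Only genes with a probe set that the annotation used here pairs with 1 gene were counted as measured, and 8730 of the 22810 probe sets carry no gene name in it. Of 69 WRKY genes listed, 7 were measured in this sense, WRKY6 and WRKY53 among them. In atg5, 4 of the 7 rose and 0 fell, and in col 4 rose and 1 fell. Over all genes, 19.1% rose and 21.2% fell in atg5, and 20.4% rose and 22.1% fell in col. The median difference of the 7 was 4.89 in atg5 and 4.58 in col, where that of all genes was 0.00. The atg5 median is the value of WRKY47 and the col median that of WRKY53 itself. WRKY6 and WRKY53 were chosen with their rises known, so these counts and medians do not describe the family. The 4 that rose are WRKY6, WRKY53, WRKY47 and WRKY22, and the differences of the other 3 lay between -0.50 and 0.07.

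WRKY22 (AT4G01250), a factor of the immune signalling that follows flagellin perception, rose in both genotypes. Its log2 signals in atg5 were 9.93, 9.99 and 9.70 after 48 h, against 2.65, 2.65 and 2.24 in control. The col arrays had 9.69, 9.42 and 8.87 after 48 h, against 2.24, 2.24 and 2.32 in control. On 3 of the 6 control arrays it lay within 0.05 of the lowest value. WRKY22 rose by 7.36 ± 0.20 in atg5 (adjusted p = 2.91e-08) and by 7.06 ± 0.20 in col (adjusted p = 3.48e-08), and with these controls the differences bound the rise from below.

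WRKY47 (AT4G01720), a group IIb factor like WRKY6, had log2 signals of 8.77, 8.90 and 8.56 in atg5 after 48 h, against 4.60, 3.30 and 3.67 in control. In col they were 9.08, 8.58 and 8.67 after 48 h, against 3.35, 3.31 and 3.73 in control. It rose by 4.89 ± 0.31 in atg5 (adjusted p = 2.54e-06) and by 5.32 ± 0.31 in col (adjusted p = 1.44e-06). Counting WRKY6, which was chosen with its rise known, 2 of the 3 measured group IIb genes rose in each genotype. Of all genes, 19.1% rose in atg5 and 20.4% in col. The third group IIb gene, WRKY42 (AT4G04450), lay within 0.05 of the lowest value on 11 of the 12 arrays. WRKY20 (AT4G26640), with group means between 6.94 and 7.12, differed by 0.07 in atg5 (adjusted p = 0.973) and -0.01 in col (adjusted p = 1). WRKY1 (AT2G04880, ZAP1) differed by -0.17 in atg5 (adjusted p = 0.408) and fell by 0.50 ± 0.14 in col (adjusted p = 0.0154). The WRKY1 fall did not pass with each array centred on its median (adjusted p = 0.138), with only the col arrays in the model (adjusted p = 0.105) and without col 48 h replicate 3 (adjusted p = 0.0562). Of group III, WRKY53 was the only one of 13 genes measured.

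Among 15 zinc finger genes of the C1-2i list, 5 were measured, and STZ, chosen with its rise known, and AT2G28200 rose in both genotypes. Of all genes, 19.1% rose in atg5 and 20.4% in col. AT2G28200 had log2 signals of 3.82, 4.46 and 3.50 in atg5 after 48 h, against 2.40, 2.49 and 2.54 in control. The col arrays had 5.07, 4.87 and 5.38 after 48 h, against 2.49, 2.48 and 2.49 in control. Submerged atg5 arrays were all below the submerged col arrays for this gene, and the share of all genes separated in this direction was not counted. AT2G28200 rose by 1.45 ± 0.22 in atg5 (adjusted p = 0.000591) and by 2.62 ± 0.22 in col (adjusted p = 1.28e-05), again over controls close to the lowest value. At 48 h it was lower in atg5, by -1.18 ± 0.22 (adjusted p = 0.0289), the only list gene whose genotype difference passed. The interaction for AT2G28200, -1.17 ± 0.31, did not pass (adjusted p = 0.149).

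The genotype difference of AT2G28200 was kept in 11 of 19 alternatives, whose adjusted p ran from 0.00625 to 0.253. It did not pass with only the 6 submerged arrays in the model (adjusted p = 0.253) or with the replicate number as a block (adjusted p = 0.079). It also missed without atg5 48 h replicates 1 or 3 (0.089 and 0.0711), without col 48 h replicate 1 (0.0721), without atg5 control replicates 2 or 3 (0.0514 and 0.0537) and without col control replicate 3 (0.0503). Without atg5 48 h replicate 2 the interaction of AT2G28200 passed (adjusted p = 0.0339). The other 3 zinc finger genes, AT2G45120, AT3G60580 and AT3G53600, lay within 0.05 of the lowest value on 9 to 11 arrays. The median difference of the 5 was 0.20 in atg5 and 0.16 in col, where that of all genes was 0.00.

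SAG101 and AT3G48080 were the 2 measured genes of 10 on the list of EDS1, its partners and its helper receptors. AT3G48080 had log2 signals of 8.83, 8.94 and 9.34 in atg5 after 48 h, against 5.64, 4.89 and 5.28 in control. In col they were 8.16, 8.18 and 8.35 after 48 h, against 2.97, 4.96 and 5.27 in control. It rose by 3.77 ± 0.53 in atg5 (adjusted p = 0.00036) and by 3.83 ± 0.53 in col (adjusted p = 0.000299), a little more than SAG101. Col control replicate 1 is the low array for AT3G48080, SAG101 and WRKY53 alike. All 3 submerged atg5 arrays lay above all 3 submerged col arrays, as they did for 8.64% of all genes. The difference of 0.81 ± 0.53 did not pass (adjusted p = 0.604). Next to AT3G48080 in the genome lies EDS1 (AT3G48090), and whether the probes also bind EDS1 transcripts was not tested.

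Of 37 genes on the leaf senescence list, 5 were measured, and in each genotype 2 rose and 1 fell. Over all genes, 19.1% rose and 21.2% fell in atg5, and 20.4% rose and 22.1% fell in col. AT2G25625 rose by 2.14 ± 0.31 in atg5 (adjusted p = 0.000426) and 2.55 ± 0.31 in col (adjusted p = 0.000132). EIN3 (AT3G20770), a transcription factor of ethylene signalling, rose by 1.44 ± 0.12 in atg5 (adjusted p = 1.62e-05) and 1.56 ± 0.12 in col (adjusted p = 8.67e-06). NOL (AT5G04900), a chlorophyll b reductase gene, fell by 0.84 ± 0.15 in atg5 (adjusted p = 0.00148) and by 1.47 ± 0.15 in col (adjusted p = 4.06e-05). SAG29 (AT5G13170), a sugar transporter gene induced in ageing leaves, lay within 0.05 of the lowest value on all 12 arrays, and EEL (AT2G41070) on 10. The 5 measured genes went both ways and are too few to describe the list. Their median difference was 0.10 in atg5 and 0.01 in col, where that of all genes was 0.00. Lists of 16 salicylic acid genes, 26 stress and MAP kinase genes and 10 partners or targets of WRKY6 and WRKY53 had 0 members with a named one-gene probe set in that annotation and were not analysed here.

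**Figure D4:**
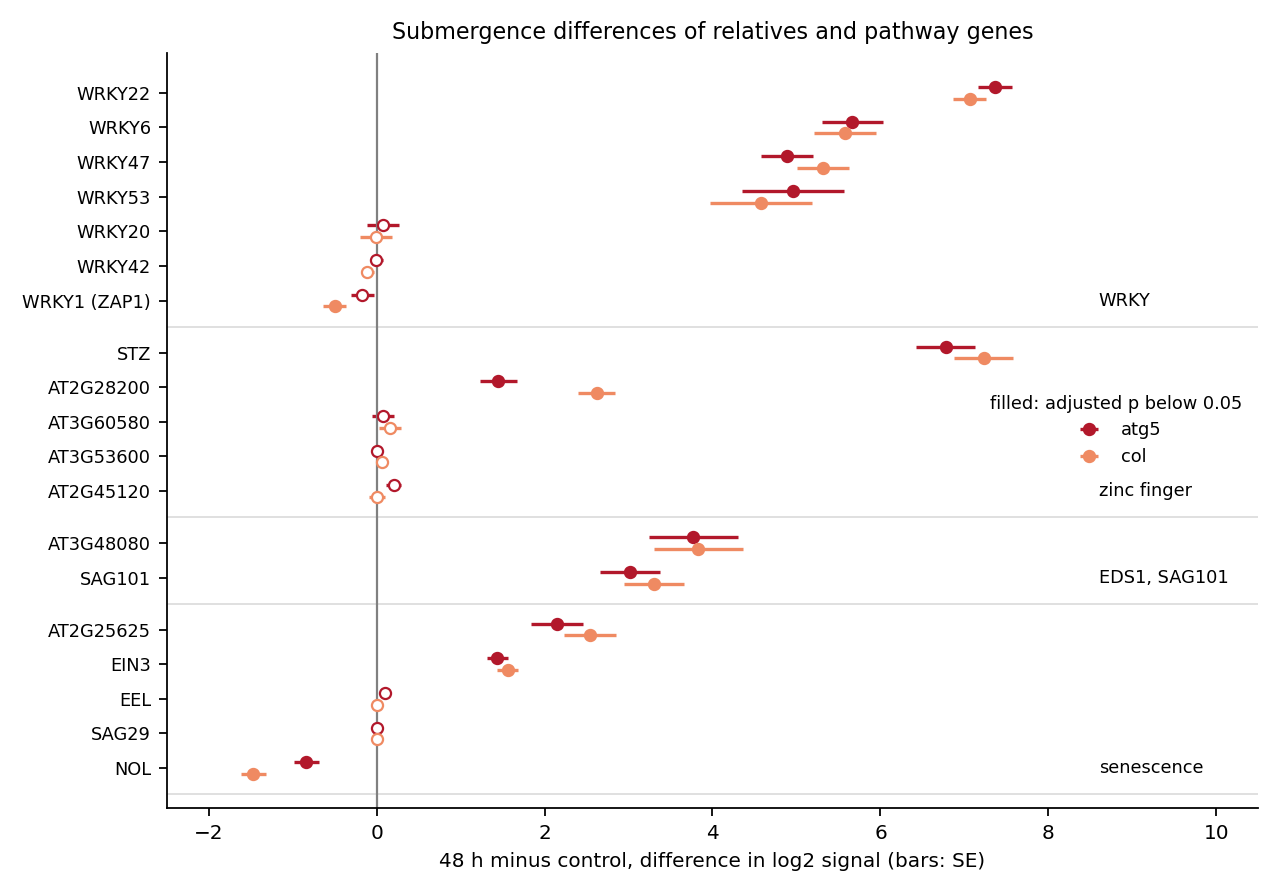
Difference in log2 signal, 48 h minus control, of the measured WRKY, C1-2i zinc finger, EDS1 and SAG101, and leaf senescence genes in atg5 (dark red) and col (orange), with SE bars and filled points for adjusted p below 0.05. WRKY22, WRKY6, WRKY47, WRKY53 and STZ stand above 4.5 in both genotypes, and AT2G28200 has its col point, 2.62, right of its atg5 point, 1.45.

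The genes with the most similar profiles were found by the root mean square distance between profiles over the 12 arrays, each centred on its own mean. For WRKY6 the nearest was PUB23 (AT2G35930), a U-box ubiquitin ligase gene of drought and immune responses, at a distance of 0.35. PUB23 averaged 9.48 in atg5 and 9.35 in col at 48 h, and 3.54 in atg5 control and 3.66 in col control, with rises of 5.95 ± 0.17 in atg5 and 5.69 ± 0.17 in col. AT3G14280 followed at 0.40 and AT3G46690 at 0.40. In all, 33 genes lay within 0.5 of WRKY6, where the median distance of all genes was 2.84.

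WRKY53 had the fewest close neighbours, 3 within 0.5, and all of them were also higher in atg5 than in col on average at both times. AT4G01700 lay at 0.40, SD1-29 (AT1G61380), a receptor-like kinase gene, at 0.49 and AT1G49000 at 0.50. SD1-29 averaged 11.07 in atg5 and 10.26 in col at 48 h, and 6.54 in atg5 control and 5.6 in col control. Its genotype differences were 0.81 ± 0.25 at 48 h (adjusted p = 0.143) and 0.94 ± 0.25 in control (adjusted p = 0.115), and neither passed. For AT1G49000 the differences were 1.2 ± 0.51 at 48 h (adjusted p = 0.301) and 0.84 ± 0.51 in control (adjusted p = 0.59). Neighbours were chosen for their likeness, so this shared order is part of the choice.

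STZ had 16 genes within 0.5, the nearest being AT2G18690 at 0.34, AT1G25400 at 0.38 and WRKY22 at 0.40. WRKY22 is thus nearer to STZ than to either WRKY gene among the 4, and its group means were 9.88 in atg5 and 9.33 in col at 48 h, and 2.51 in atg5 control and 2.26 in col control. AT2G18690 rose by 6.82 ± 0.33 in atg5 and 7.89 ± 0.33 in col. SAG101 had 148 genes within 0.5, led by PUB43 (AT1G76390) at 0.31, AT1G22930 at 0.32 and APG8A (AT4G21980, ATG8a) at 0.32. APG8A encodes an autophagosome coat protein and rose by 3.06 ± 0.19 in atg5 and 3.71 ± 0.19 in col. PUB43, a U-box ubiquitin ligase gene by name, rose by 2.96 ± 0.27 in atg5 and 2.88 ± 0.27 in col.

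None of the 4 genes was among the 3 nearest of another. WRKY6 and WRKY53 lay 0.90 apart, WRKY6 and STZ 0.92, and STZ and SAG101 1.99. The distance grows with any difference in the size of the rise, and it says nothing of shared control.

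**Figure D5:**
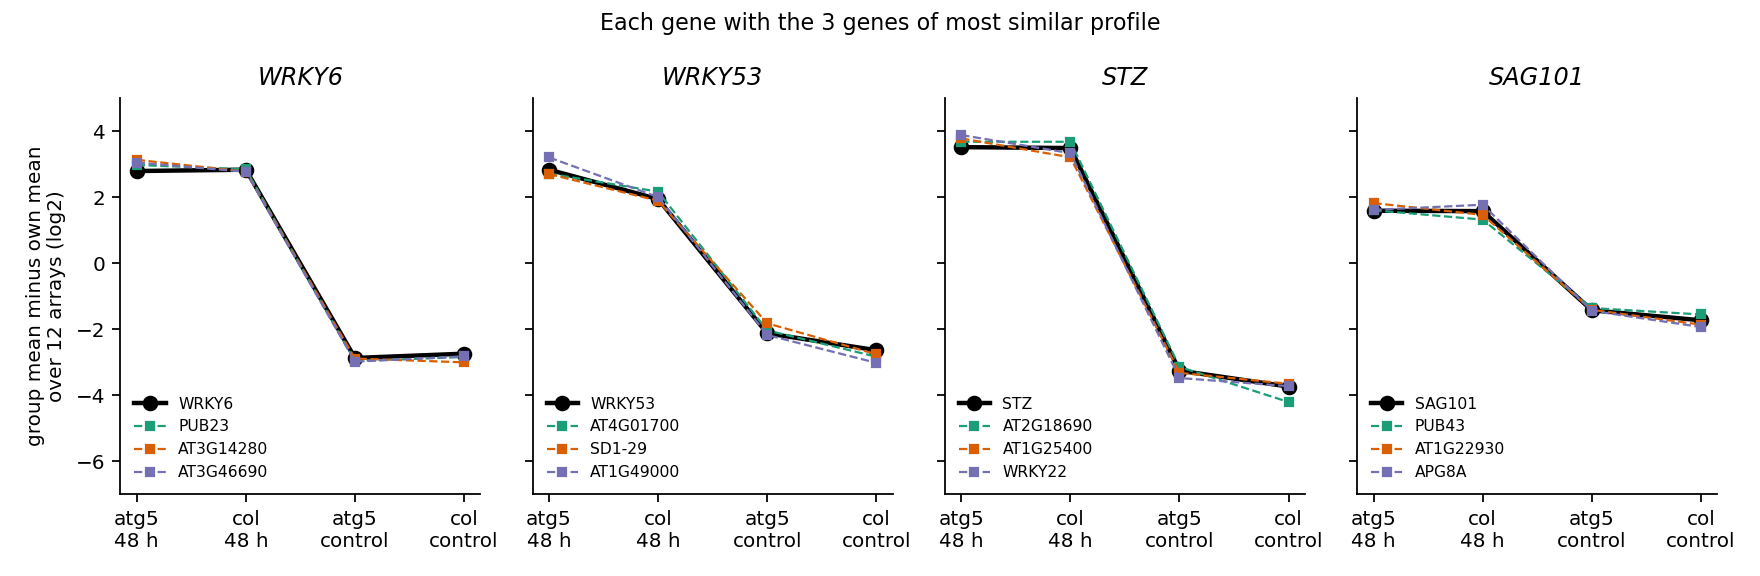
Group means of each gene (black) and of its 3 nearest genes (colours), each minus its own mean over the 12 arrays, in log2 units; lines join groups only to guide the eye. WRKY53 and its neighbours step down from atg5 to col within each time, while WRKY6 stays level.

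Markers of the leaf and of other tissues were read beside these results. Of 13 leaf mesophyll markers 5 were measured, and 4 fell in atg5 and 5 in col. Over all genes 21.2% fell in atg5 and 22.1% in col. The summed linear signal of the mesophyll markers was 27205 to 29531 in atg5 and 13653 to 27949 in col at 48 h, against 66790 to 69110 in atg5 control and 65285 to 68312 in col control. The root markers PYK10 (AT3G09260) and EXPA7 (AT1G12560) lay within 0.05 of the lowest value on 11 and 12 arrays, the only 2 of 7 measured. Single markers of guard cells, phloem and dividing cells did not pass in atg5, and in col the phloem marker SWEET11 (AT3G48740) rose by 0.90 ± 0.23 (adjusted p = 0.0117). The part of these markers in the rises of the 4 genes was not tested.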

How the data were processed

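Leaf RNA of 12 samples was measured on one-colour Affymetrix arrays. The authors deposited log2 probe set signals. Both MAS5 and GCRMA stand in the submitters' processing notes, with neither role nor order, and that the values are log2 and normalized was inferred from their range and from the equal lowest value of all arrays. Of 22810 probe sets, 64 are controls, 13513 pair with 1 gene in the platform annotation, 503 with several and 8730 with none named here. The brightest probe set stood for each gene with more than 1, giving 13356 genes, of which 13286 matched RefSeq (TAIR10.1) for names. Each of the 4 groups had its own mean in a limma 3.58.1 model (R 4.3.3) of the 12 arrays as deposited, with 8 residual and 0.488 prior degrees of freedom. Two-sided p-values were adjusted after Benjamini and Hochberg over 13356 genes, 0.05 was the threshold, and the model was tested on simulated data. Precision is limited by the number of arrays, 3 per group, and detection calls, scan dates and batches were not used here. Members and lists were chosen with earlier results of these data known. Named besides the 4 genes are every measured gene of the short lists, the largest changes of the longer ones, list genes that passed between genotypes, and the 3 nearest genes of each member. WRKY20, SAG29, EEL, the tissue markers and the bZIP genes fall outside this rule and were named after their values were seen. Same-numbered replicates did not deviate together across all groups (r between -0.476 and 0.103 over genes), so no block was used in the main model. Between the 2 control groups r was 0.046 to 0.103. Alternatives were other scalings, filters, probe set choices, priors, a replicate block, fewer groups and each array left out. Gene and probe sequences are not shown.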

Additional observations from a re-analysis of the deposited data

How the results depend on the processing

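All 8 submergence rises of the 4 genes passed under each of the 19 alternatives, with values between 2.86 (SAG101, atg5) and 7.57 (STZ, col) and adjusted p up to 0.00583. None of the 12 genotype and interaction results passed under any of the 224 values computed, and 23 of these turned sign. With quantile normalization the SAG101 difference at 48 h was -0.011. Leaving out each array in turn gave atg5 minus col in control between -0.49 and 0.18 for WRKY6, -0.077 and 0.94 for WRKY53, -0.011 and 0.52 for SAG101, and 0.19 and 0.83 for STZ. At 48 h the ranges were -0.20 to 0.10 for WRKY6, 0.70 to 1.02 for WRKY53, -0.33 to 0.21 for SAG101 and -0.12 to 0.22 for STZ. For the interaction they were -0.22 to 0.45 for WRKY6, -0.047 to 0.97 for WRKY53, -0.64 to 0.024 for SAG101 and -0.80 to -0.16 for STZ. With each array centred on its median, WRKY42 differed by 0.083 in col and 0.26 in atg5, WRKY1 (ZAP1) by 0.086 in atg5 and WRKY20 by 0.18 in col. Leaving out arrays, WRKY20 ran from -0.16 to 0.12 in col and from -0.094 to 0.17 in atg5.

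With the replicate number as a block, no call of the 4 genes changed, and WRKY53 at 48 h stayed at 0.89 (adjusted p = 0.661). All 3 control arrays of col correlated best with their own number among atg5 controls, and 0 of 3 did so between the submerged groups. Counts of genes called moved over 1.5 times with the block to 159 in control (313 without), 229 at 48 h (457) and 34 for the interaction (80). Centring gave 10318 genes in atg5 (5383 as deposited), 9195 in col (5678) and 151 for the interaction, and without dim genes 695 passed at 48 h and 156 for the interaction. With only the arrays of the 2 groups, 13 passed in control and 13 at 48 h. Leaving out arrays gave 124 to 344 in control, 179 to 751 at 48 h and 51 to 186 for the interaction. Centring moved the split in control to 166 higher and 209 lower (183 and 130 as deposited) and in the interaction to 101 and 50 (45 and 35). Of 160 list values 14 moved. Centring gave 5 zinc finger calls in atg5 and 4 in col, since it shifts genes at the lowest value, and 5 senescence calls in each genotype. Without dim genes the zinc finger medians were 4.11 in atg5 and 4.93 in col, and the senescence medians 1.44 in atg5 and 1.56 in col. These zinc finger medians rest on STZ, a member, and AT2G28200 alone, and the senescence medians are the values of EIN3 itself. The filter used the mean signal over all 12 arrays, submerged ones included, so these medians do not describe the lists.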

Other observations

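Among 19 genes named as bZIP or bHLH transcription factors, a list added after the annotation had been seen, 8 rose and 3 fell in atg5, and 8 rose and 4 fell in col. Over all genes, 19.1% rose and 21.2% fell in atg5, and 20.4% rose and 22.1% fell in col. The differences of the 19 ran from -4.43 to 2.86 in atg5 and from -3.57 to 3.86 in col, with a median of 0.00 in atg5 and 0.04 in col. Of them, bZIP42, bZIP43, bZIP48 and bZIP58 lay within 0.05 of the lowest value on all 12 arrays. WRKY6, WRKY53 and STZ each rose by more than any of these 19 in both genotypes. SAG101 did so in atg5, at 3.02 against a highest of 2.86, but not in col, at 3.31 against 3.86. The members were chosen with their rises known, so this order describes them and tests nothing. bZIP44 (AT1G75390) rose by 2.57 ± 0.26 in atg5 (adjusted p = 4.74e-05) and by 3.86 ± 0.26 in col (adjusted p = 3.47e-06), and BZIP60 (AT1G42990), of the endoplasmic reticulum stress response, by 2.86 ± 0.18 in atg5 and 3.25 ± 0.18 in col. BZIP61 (AT3G58120) fell by 4.43 ± 0.16 in atg5 (adjusted p = 1.55e-07) and by 3.57 ± 0.16 in col (adjusted p = 4.32e-07). On 2 of the 3 submerged atg5 arrays BZIP61 lay at the lowest value of 2.20, and on the submerged col arrays at 2.34 to 2.49, so both differences bound the fall from below. For 0 of the 19 did the genotype differences or the interaction pass.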
